A study of Mus musculus with 30 samples.

Results

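Tianeptine was compared with saline in mice that had no nerve injury, using 11 of the 30 RNA sequencing libraries of a study of the nucleus accumbens in neuropathic pain. The libraries were chosen by their labels: 6 from sham-operated mice on tianeptine and 5 from sham-operated mice on saline. All 11 mice were male C57Bl/6J animals with a sham version of the surgery for tibial spared nerve injury (SNI), and the labels name no mutation or transgene. From 4 weeks after surgery they were injected into the peritoneum 2 times a day for 3 weeks, with 30 mg/kg tianeptine or with saline. Each library was made from polyadenylated RNA of accumbens punches from both hemispheres of 1 animal, so replicates are separate mice. For reference, 5 SNI mice on saline and 6 SNI mice on tianeptine had the same schedules, and 4 sham and 4 SNI mice had desipramine at 15 mg/kg. The sources used here do not give the hour of tissue collection or the time since the last injection.

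Tianeptine, a tricyclic compound by structure, is used as an antidepressant and is an agonist of mu-opioid receptors. The nucleus accumbens is the ventral part of the striatum, built mainly of medium spiny neurons that carry dopamine D1 or D2 receptors, with opioid receptors on many of its cells. The molecular clock, to which several of the genes below belong, is a feedback loop that runs in most cells. BMAL1 (gene Arntl) and CLOCK bind DNA elements called E-boxes and activate the Per, Cry, Nr1d, Bhlhe40, Bhlhe41 and Ciart genes, whose proteins then repress BMAL1 and CLOCK or transcription of Arntl.

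Total counts ran from 24.5 to 36.0 M in saline replicates 1 to 4 and from 27.8 to 31.2 M in tianeptine replicates 1 to 4. A second set of libraries, saline replicate 5 and tianeptine replicates 5 and 6, held 104.6 to 120.7 M, and the set was a term in the model. The tissue label was checked against markers of medium spiny neurons, which were abundant in every library: Ppp1r1b (DARPP-32) lay between 552 and 872 counts per M (CPM, with TMM scaling, the trimmed mean of M values) on saline and between 383 and 804 CPM on tianeptine. Some libraries stood apart in markers of neighbouring tissue or in immune genes, and whether their punches took in such tissue was not tested. Saline replicate 3 had high fibroblast and meninges markers, saline replicates 2 and 3 high interferon and antigen presentation genes, and tianeptine replicate 6 high choroid plexus markers. Tianeptine replicates 1 and 2 had low cortical and high septal markers, and tianeptine replicate 5 high cortical markers. Mitochondrial genes made up 0.991% of counts in saline replicate 2, against 1.854, 1.69 and 1.783% in saline replicates 1, 3 and 4. The share was 1.473 to 1.976% in tianeptine replicates 1 to 4, and the reason for the low value was not tested. In bulk tissue, fewer cells of a type and less RNA per cell cannot be told apart.

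The comparison asked what 3 weeks of tianeptine changed in the accumbens without injury. No gene of 23736 passed an adjusted p of 0.05 with edgeR's quasi-likelihood test, where the lowest edgeR adjusted p was 0.714. At an unadjusted p under 0.05 there were 1623 genes, 6.84% of those tested, of which 882 (3.72%) were higher and 741 (3.12%) lower on tianeptine. With upper quartile scaling the split was 666 higher and 905 lower. The count also moved with single mice: it was 858 without tianeptine replicate 1 and 2471 without saline replicate 5. All differences below are therefore measured differences that did not pass the adjusted test, unless a sentence says otherwise. They are given as log2 fold change of tianeptine over saline ± SE. The gene-level adjusted p was 0.714 with edgeR for each of the 24 genes of smallest p, 12 higher and 12 lower.

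The gene of smallest p was Ciart, a clock gene whose product CHRONO represses BMAL1 and CLOCK (chromosome 3, 95878503 to 95882251, minus strand, mm10). Its promoter is shown because it holds the E-box, the element through which the clock drives its repressors, 3 times. The stretch runs from 150 to 30 bases before the RefSeq start (GRCm38.p6, chr3:95882258-95882378, minus strand, read 5′ to 3′), with each CACGTG in capitals. Beside it are stretches of Per1 (chr11:69098756-69098815, plus strand) and Cry1 (chr10:85185082-85185141, minus strand), which hold the same letters 1 time each.
Ciart: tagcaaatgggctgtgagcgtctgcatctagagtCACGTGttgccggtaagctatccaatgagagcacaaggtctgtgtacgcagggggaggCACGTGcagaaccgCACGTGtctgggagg
Per1: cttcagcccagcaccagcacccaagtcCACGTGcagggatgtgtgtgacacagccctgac
Cry1: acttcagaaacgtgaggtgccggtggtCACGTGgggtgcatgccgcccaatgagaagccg
CACGTG reads the same on both strands. Of 32851 RefSeq windows of 250 bases before a start, 1978 (6.02%) held it and 20 (0.0609%) held it 3 or more times. Among the 10 clock repressor genes, 8 had a window, and 4 of these held the motif: Ciart, Per1, Cry1 and Bhlhe41. A match describes the letters in the window and is not evidence of binding.

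Ciart was at 6.69, 8.41, 5.87, 8.83 and 7.53 CPM in saline replicates 1 to 5. On tianeptine its lowest level was 9.73, its median 11 and its highest 12.3 CPM. Each of the 6 tianeptine mice lay above each of the 5 saline mice. The difference was 0.56 ± 0.11 (95% interval 0.33 to 0.80, unadjusted p = 3.93e-05 with edgeR), and it stayed between 0.49 and 0.63 when any 1 mouse was left out. Separated groups of this kind were found for 79 of 23736 genes (0.333%), with tianeptine higher in 38 (0.16%). DESeq2 called Ciart, and no other gene of 23731 (0.00421%), with a DESeq2 adjusted p of 0.0118, whereas limma-voom called 0 genes with a lowest limma-voom adjusted p of 0.401. Over all other settings tried, the adjusted p of Ciart ran from 0.239 to 1.0.

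A gene annotated as antisense, C920021L13Rik, spans the Ciart locus on the other strand (95871522 to 95889093) and was looked at after its value was seen. It was at 13.8, 15.2, 13.8, 18.2 and 16 CPM on saline, and at 17.6, 19.3 and 21.5 CPM (lowest, median, highest) on tianeptine. The groups overlapped only in that saline replicate 4 lay above the 2 lowest tianeptine mice, and the difference was 0.33 ± 0.08 (unadjusted p = 0.000591, edgeR). Its exons share 0 bases with those of Ciart. The sources used here do not say whether the counting used strand, so introns and unspliced RNA of the 2 genes were not separated.

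All 10 clock repressor genes were higher on tianeptine, with a median difference of 0.15. Over all genes tested the median was 0.003, with 50.9% higher and 49.1% lower. At an unadjusted p under 0.05 there were 3 of the 10, Ciart, Nr1d2 and Bhlhe41, against 3.72% higher over all genes. The median stayed between 0.13 and 0.16 when any 1 mouse was left out. The number higher was 8 of 10 without saline replicate 3 and 9 of 10 without tianeptine replicate 6. The score of these genes (the mean of their log2 CPM, each centred over the 30 libraries) was -0.04, 0.04, -0.09, -0.05 and 0.10 in saline replicates 1 to 5. On tianeptine it ran from 0.07 to 0.28, and 5 of the 6 mice lay above every saline mouse, with replicate 5 below saline replicate 5.

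Nr1d2, which encodes the nuclear receptor REV-ERB beta that represses Arntl, was at 127, 86.4, 119, 124 and 149 CPM on saline and at 121, 135 and 169 CPM (lowest, median, highest) on tianeptine. The groups overlapped widely, with saline replicate 2 lowest of all 11. The difference was 0.17 ± 0.07 (unadjusted p = 0.0266, edgeR), and 0.09 ± 0.05 without that mouse.

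Bhlhe41 (DEC2), a repressor that competes for E-boxes, was at 41.6, 45.9, 39.3, 44.9 and 54.7 CPM on saline. On tianeptine it was at 44.4, 55.1 and 62.7 CPM (lowest, median, highest), and only replicates 2, 3 and 6 exceeded the highest saline mouse. The difference was 0.24 ± 0.10 (unadjusted p = 0.0269, edgeR), and 0.11 ± 0.08 with scores of neighbouring tissue in the model. These tissue scores are those of the choroid plexus, fibroblast, cortical and septal marker lists described below. Per2, a core repressor, was at 47.4, 46.6, 54.2, 45.9 and 59.3 CPM on saline and at 51.0, 62.0 and 66.4 CPM on tianeptine. In Per2, 4 of the 6 tianeptine mice lay above every saline mouse, and the difference was 0.22 ± 0.12 (unadjusted p = 0.0669, edgeR).

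Bhlhe40 (DEC1), the paralog of Bhlhe41, was at 38.9, 56.6, 40.3, 44.3 and 42.0 CPM on saline and at 43.1, 49.2 and 55.1 CPM on tianeptine. Saline replicate 2 was the highest of all 11 mice for this gene. The difference was 0.16 ± 0.09, and 0.26 ± 0.08 without that mouse. Per3 differed by 0.13 ± 0.09 and Per1 by 0.14 ± 0.15. Nr1d1 (REV-ERB alpha) differed by 0.03 ± 0.06, and the cryptochromes Cry1 and Cry2 by 0.01 ± 0.11 and 0.02 ± 0.07.

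Arntl, the activator that the repressors act on (chromosome 7, 113207465 to 113314126, plus strand), was lower. Its levels were 53.2, 45.8, 45.5, 57.2 and 52.7 CPM on saline and 36.9, 40.0 and 47.2 CPM (lowest, median, highest) on tianeptine. Of the 6 tianeptine mice, only replicate 2 lay above a saline mouse (replicates 2 and 3). The difference was -0.32 ± 0.11 (unadjusted p = 0.00907, edgeR), and between -0.37 and -0.27 when any 1 mouse was left out. The other activators did not share this: Clock differed by 0.00 ± 0.07, its paralog Npas2 by -0.26 ± 0.28, and the ROR receptor genes Rora and Rorb by -0.10 ± 0.10 and -0.06 ± 0.17. Over the 6 activators, 2 were higher and 4 lower, with a median of -0.08.

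The clock's output transcription factors of the PAR bZIP family were near 0, with Dbp at 0.14 ± 0.14, Tef at 0.04 ± 0.10 and Hlf at -0.05 ± 0.13. Nfil3, a repressor that competes with them, differed by -0.21 ± 0.11 (unadjusted p = 0.07, edgeR). Of the 4, 2 were higher and 2 lower.

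**Figure D1:**
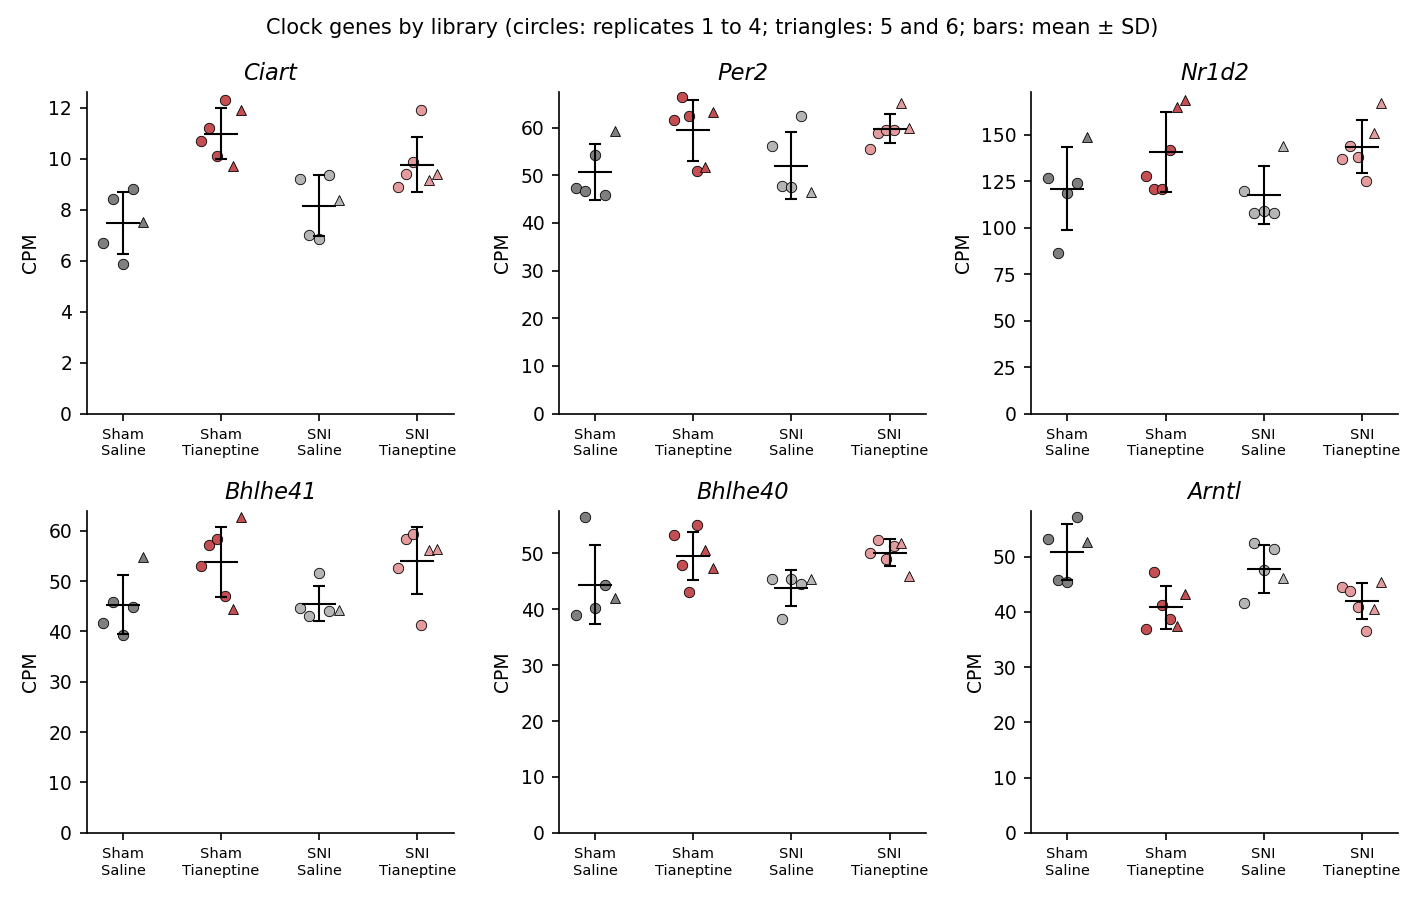
CPM of 6 clock genes (vertical axes, linear) by library for saline and tianeptine in sham and SNI mice; circles are replicates 1 to 4, triangles replicates 5 and 6, and bars give mean ± SD. In sham mice Ciart is separated between the groups (5.87 to 8.83 CPM on saline, 9.73 to 12.3 CPM on tianeptine), while the other 5 genes overlap.

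The SNI mice on saline and tianeptine are other animals, so their comparison shares no library with this one when each is fitted alone. Between these 2 separate fits, 15 of the 20 clock genes had the same direction, against 49.3% of the 22170 genes tested in both. In the separate sham fit 9 of the 10 repressors were higher, with Cry1 at -0.0 ± 0.08. In the model of all 30 libraries all 10 were higher on tianeptine in SNI as well, with a median of 0.20. Of these, 4 had an unadjusted p under 0.05 (edgeR), against 1.67% of all genes higher. Ciart differed by 0.56 ± 0.12 in the sham fit (unadjusted p = 0.000501, edgeR) and by 0.26 ± 0.11 in the SNI fit (unadjusted p = 0.0374, edgeR). Arntl differed by -0.32 ± 0.08 and -0.20 ± 0.07 (unadjusted p = 0.00249 and 0.0184, edgeR).

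Per2 and Bhlhe41 were the other clock genes with an unadjusted p under 0.05 in both fits, at 0.22 ± 0.09 and 0.20 ± 0.08 for Per2 and at 0.23 ± 0.10 and 0.23 ± 0.09 for Bhlhe41. These 4 of 20 clock genes were among 26 genes of 22170 (0.117%) that met this in both fits with the same direction. The list was made from these data, so the counts describe the 2 sets of mice. None of these genes passed an adjusted p of 0.05 in either surgery group in edgeR's model of all 30 libraries. The difference between the SNI and the sham effect of Ciart was -0.30 ± 0.16 (unadjusted p = 0.071, edgeR).

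**Figure D2:**
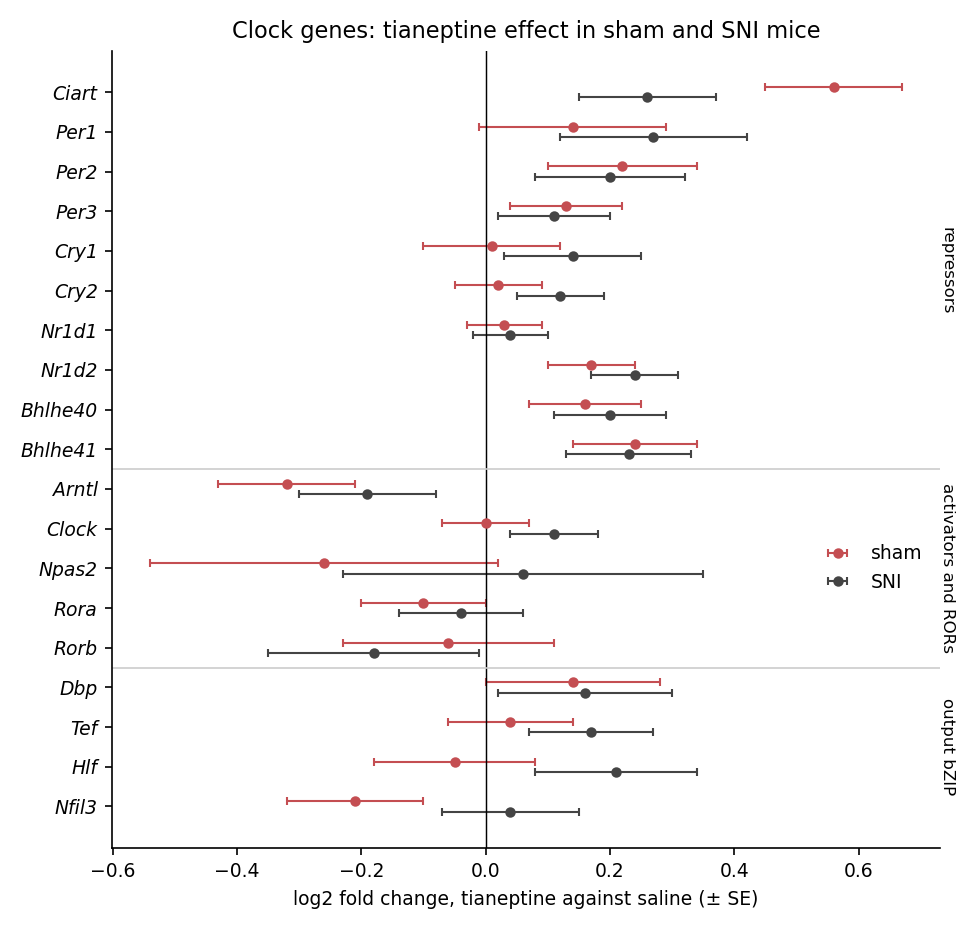
Log2 fold change of tianeptine over saline (horizontal axis, ± SE) for clock genes in sham mice (red) and in SNI mice (dark), from the model of all 30 libraries. The 10 repressors lie at or above 0 in both, from 0.01 for Cry1 to 0.56 for Ciart in sham, and Arntl lies at -0.32 in sham and -0.19 in SNI.

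Of 672 genes that were higher at an unadjusted p under 0.05 in the sham fit, 287 (42.7%) were higher in SNI too, against 47.7% of all genes higher in sham. Of 485 lower genes, 255 (52.6%) were lower in SNI, against 50.7%. The share of higher genes was 30.2% against 43.7% without saline replicates 2 and 3. Within the first library set the share over both directions was 30.8% against 44.8%. The difference between these shares and those of all genes was not tested. Besides the clock genes, the 26 genes of both fits included Fcrls, a microglial Fc receptor-like gene, Mthfd1l, a mitochondrial enzyme of folate metabolism, and Ddx21, a nucleolar RNA helicase. Fcer1g, the Fc receptor gamma chain of microglia and other myeloid cells, differed by -0.33 ± 0.14 in sham and -0.27 ± 0.08 in SNI.

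Levels of Ciart in the other groups are given beside these because sham saline is the control of other comparisons too. Sham mice on desipramine were at 4.93 ± 0.681 CPM (SD, n = 4), and sham mice on saline and tianeptine at 7.47 ± 1.22 CPM (SD, n = 5) and 11 ± 1.01 CPM (SD, n = 6). After SNI the levels were 5.77 ± 0.698 CPM on desipramine (SD, n = 4), 8.16 ± 1.19 CPM on saline (SD, n = 5) and 9.77 ± 1.07 CPM on tianeptine (SD, n = 6). The lowest tianeptine mouse of either surgery, at 8.91 CPM, lay above the highest desipramine mouse, at 6.38 CPM.

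Genes of blood vessels were among the lower genes of smallest p. Cldn5, the main tight junction claudin of the blood-brain barrier, was at 27.8, 48.7, 44.5, 37.4 and 27.9 CPM on saline. On tianeptine it was at 16.7, 22.2 and 31.3 CPM (lowest, median, highest), and only tianeptine replicate 6 reached into the saline range. The difference was -0.68 ± 0.16 (95% interval -1 to -0.36, unadjusted p = 0.000165, edgeR). Saline replicates 2 and 3, the highest for Cldn5, also had the highest interferon scores (0.77 and 0.96), and without them the difference was -0.44 ± 0.16.

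Kdr, the main receptor for VEGF-A on endothelial cells, was at 14.2, 16.7, 20.2, 19.3 and 16.3 CPM on saline and at 9.68, 12.1 and 15.5 CPM on tianeptine. Here 5 of the 6 tianeptine mice lay below every saline mouse. The difference was -0.50 ± 0.13 (unadjusted p = 0.00048, edgeR), and -0.42 ± 0.14 without saline replicates 2 and 3. Flt1, the other VEGF-A receptor of endothelium, differed by -0.42 ± 0.12 (unadjusted p = 0.00165, edgeR). The angiopoietin receptor genes Tie1 and Tek differed by -0.50 ± 0.15 and -0.34 ± 0.10. Pecam1, the endothelial adhesion molecule CD31, differed by -0.47 ± 0.14, with Tie1 and Pecam1 at -0.22 ± 0.14 and -0.20 ± 0.13 without saline replicates 2 and 3.

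Over the 29 endothelial markers, 28 were lower and 1 was higher on tianeptine, with a median of -0.25 and 11 lower at an unadjusted p under 0.05, against 3.12% of all genes. Without saline replicates 2 and 3 they were lower in 21 of 29, 4 of them at an unadjusted p under 0.05, with a median of -0.07. Their score was -0.20, 0.36, 0.48, 0.20 and -0.02 in saline replicates 1 to 5 and ran from -0.46 to 0.22 on tianeptine. Saline replicate 1 thus lay below 5 of the 6 tianeptine mice, and the 2 groups overlapped. The summed level of the list was 857 to 1222 CPM on saline and 738 to 1030 CPM on tianeptine.

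Ligands and hypoxia factors that act on vessels were mixed. Vegfa, the ligand of Kdr and Flt1, was at 109, 127, 110, 113 and 114 CPM on saline and at 89.7, 94.4 and 110 CPM on tianeptine. Of the 6 tianeptine mice, 5 lay below every saline mouse, and the difference was -0.22 ± 0.07 (unadjusted p = 0.00433, edgeR). Angpt2, a ligand of Tek, differed by -0.66 ± 0.21, and by -0.37 ± 0.18 without saline replicate 3. Of the hypoxia-inducible factors, Epas1 differed by -0.21 ± 0.09 and Hif1a by 0.13 ± 0.06, and both moved closer to 0 without saline replicates 2 and 3, to -0.10 ± 0.10 and 0.04 ± 0.06.

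Mural cells, the pericytes and smooth muscle around vessels, had 16 of 16 markers lower, with a median of -0.33. Of these, 10 had an unadjusted p under 0.05, against 3.12% of all genes lower. Without saline replicates 2 and 3, 13 of 16 were lower, 1 of them at that p, with a median of -0.15. Pdgfrb, the pericyte receptor for PDGF-B, differed by -0.32 ± 0.10 and Vtn, a matrix protein made by pericytes, by -0.64 ± 0.19. Without those 2 mice Pdgfrb was at -0.15 ± 0.10 and Vtn at -0.16 ± 0.14. Vtn was at 130 CPM in saline replicate 3, against 44.4 to 76.0 CPM in the other saline mice and 34.2 to 49.4 CPM on tianeptine.

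Basement membrane genes, which build the sheet around vessels, were lower in 17 of 19, with a median of -0.28. Of these, 7 had an unadjusted p under 0.05, against 3.12% of all genes lower. Lamc1, the laminin gamma chain common to most laminins, was at 45.7, 53.5, 62.5, 52.9 and 50.9 CPM on saline and at 37.9, 44.0 and 51.3 CPM on tianeptine. All tianeptine mice but replicate 6 lay below all saline mice. The difference was -0.30 ± 0.07 (unadjusted p = 0.000241, edgeR), and -0.19 ± 0.07 without saline replicates 2 and 3. Lamb2 and the perlecan gene Hspg2 differed by -0.53 ± 0.17 and -0.63 ± 0.21, and by -0.24 ± 0.12 and -0.27 ± 0.15 without saline replicate 3. The type IV collagen gene Col4a1 differed by -0.32 ± 0.13, and by -0.18 ± 0.15 without saline replicates 2 and 3. Without saline replicate 3 the list's median was -0.05.

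Markers of meningeal fibroblasts, like these vessel lists, scored highest in saline replicate 3 of the 11 mice. Tianeptine replicate 5 had the highest fibroblast score on tianeptine (1.05), but endothelial, mural and basement membrane scores of -0.09, -0.17 and -0.07. The fibroblast score was 0.10, 0.42, 2.76, 0.58 and -0.91 in saline replicates 1 to 5 and -1.03 to 1.05 on tianeptine. The summed level of these markers was 449 to 2139 CPM on saline and 465 to 761 CPM on tianeptine. Of 19 markers 18 were lower, with a median of -1.15, which became 0.07 without saline replicates 2 and 3. Col1a1, a defining marker, was at 28.3 CPM in saline replicate 3 and at 2.79 to 8.42 CPM in the other 10 mice, so it was at 0 in none. With scores of neighbouring tissue in the model, the fibroblast score among them, 29 of 29 endothelial markers were lower (median -0.26). For mural markers this was 16 of 16 (median -0.30), and for basement membrane genes 19 of 19 (median -0.20). At an unadjusted p under 0.05 (edgeR) were 14, 7 and 7 of these. The part of meningeal RNA in the vessel values beyond these fits was not tested.

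**Figure D3:**
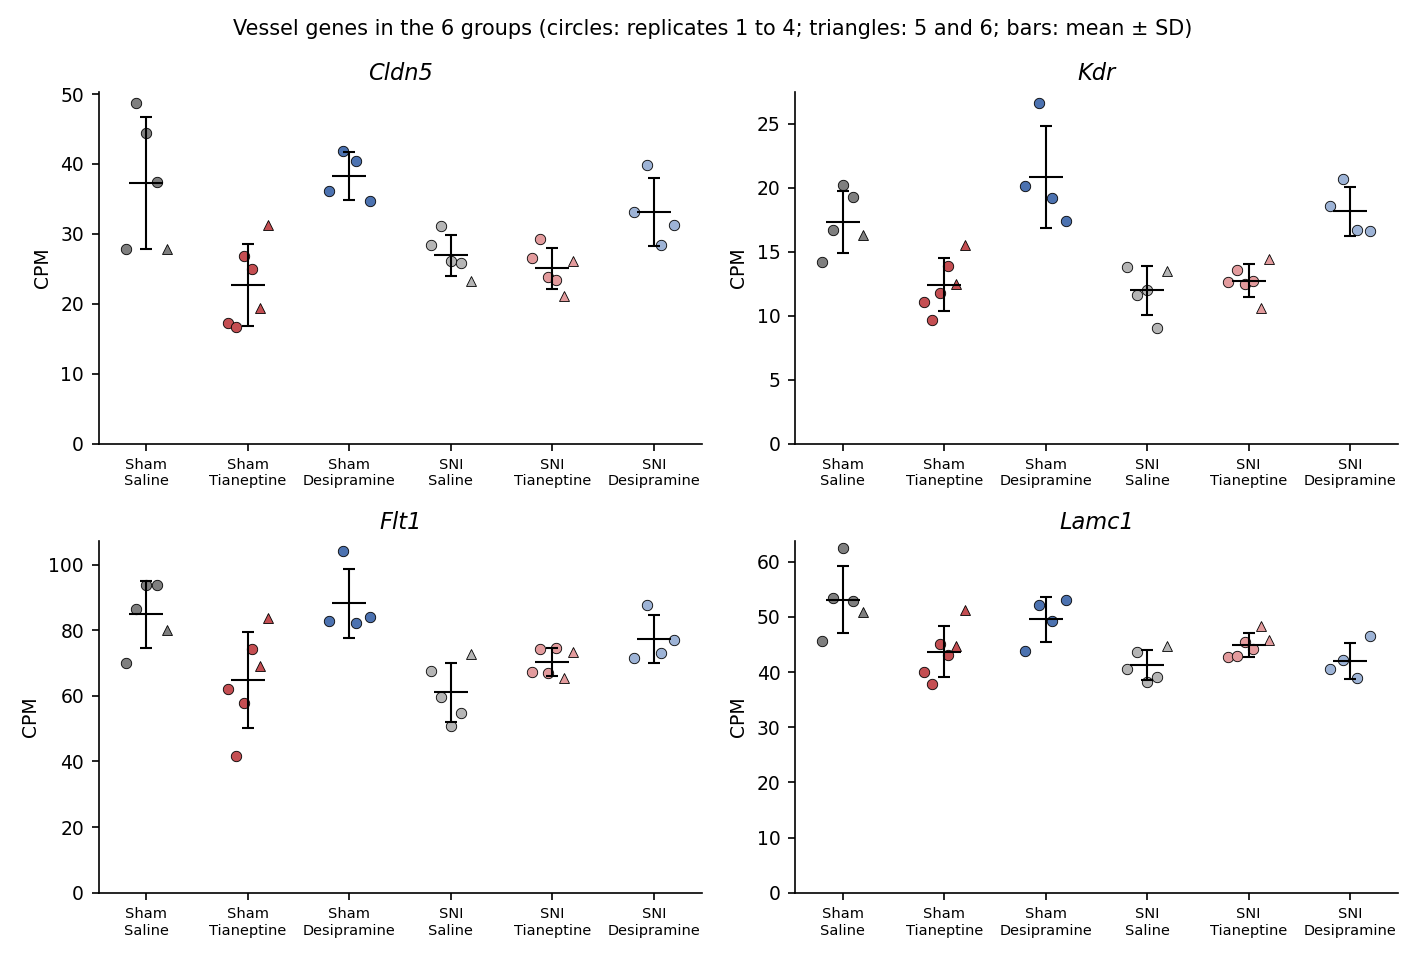
CPM of Cldn5, Kdr, Flt1 and Lamc1 (vertical axes, linear) in each library of the 6 groups, with bars for mean ± SD. Sham tianeptine is lower than sham saline for each gene (Cldn5 22.8 against 37.2 CPM), while SNI saline and SNI tianeptine lie close together (26.9 and 25.0 CPM).

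In SNI mice the differences in these genes lay nearer 0, and no test of the difference between the surgeries passed. Some of these genes were named for a small p in sham, which by itself favours larger differences there. Cldn5 was at 26.9 ± 2.98 CPM (SD, n = 5) on saline and 25.0 ± 2.88 CPM (SD, n = 6) on tianeptine after SNI, against 37.2 ± 9.48 CPM (SD, n = 5) and 22.8 ± 5.87 CPM (SD, n = 6) in sham mice. The effect in SNI was -0.09 ± 0.15, and the test of the difference between the surgeries gave an unadjusted p of 0.0111 (edgeR adjusted p = 0.989). For Kdr the SNI effect was 0.08 ± 0.13 and for Flt1 0.19 ± 0.12. The SNI saline mice were at 12 ± 1.9 CPM for Kdr (SD, n = 5), beside 12.4 ± 2.06 CPM in sham mice on tianeptine (SD, n = 6) and 17.3 ± 2.43 CPM in sham mice on saline (SD, n = 5). The endothelial list was higher in 21 of 29 in SNI, with a median of 0.10.

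Microglia, the resident macrophages of brain, had 23 of 24 markers lower, with a median of -0.20. Of these, 11 had an unadjusted p under 0.05, against 3.12% of all genes lower. Without saline replicates 2 and 3 the direction was the same in 23 of 24, with 2 at an unadjusted p under 0.05 and a median of -0.09. Fcrls was at 24.4, 26.6, 28.5, 24.2 and 22 CPM on saline and at 18.3, 21 and 21.6 CPM on tianeptine. Each tianeptine mouse lay below each saline mouse, as in 41 of all genes tested (0.173%). The difference was -0.29 ± 0.07 (unadjusted p = 0.000656, edgeR), with -0.19 ± 0.07 in SNI (unadjusted p = 0.017, edgeR).

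Olfml3, a secreted protein of microglia, was at 17.7, 25.2, 27.4, 20.2 and 16.4 CPM on saline and at 14.8, 16.3 and 17.9 CPM on tianeptine. Saline replicates 1 and 5 lay within the tianeptine range, and its difference of -0.38 ± 0.09 became -0.16 ± 0.08 without saline replicates 2 and 3. Csf1r, the receptor that microglia need to survive, differed by -0.26 ± 0.09, and the phagocytic genes Trem2 and C1qa by -0.30 ± 0.12 and -0.28 ± 0.11. Without saline replicate 2 these 3 were at -0.16 ± 0.08, -0.14 ± 0.09 and -0.15 ± 0.09. Laptm5, a lysosomal protein of blood-derived cells, differed by -0.29 ± 0.09, and by -0.19 ± 0.08 without that mouse.

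The microglial genes did not move alike. Of the homeostatic markers, 3 named after their values were seen were Cx3cr1 at -0.02 ± 0.05, P2ry12 at -0.01 ± 0.07 and Tmem119 at -0.19 ± 0.09. Without saline replicates 2 and 3 they were at -0.01 ± 0.05, -0.10 ± 0.08 and -0.03 ± 0.08. Hexa, the alpha chain of lysosomal hexosaminidase, differed by -0.17 ± 0.05 (unadjusted p = 0.000801, edgeR).

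Several lists followed 1 or 2 mice, and their values are given with and without them. The 24 choroid plexus and ependyma markers tested were higher in 22, with a median of 1.34. Of these, 16 had an unadjusted p under 0.05, against 3.72% of all genes higher. The summed level of the list was 138 to 168 CPM on saline, 140 to 231 CPM in tianeptine replicates 1 to 5 and 907 CPM in replicate 6. Ttr, the transthyretin that choroid plexus secretes, was at 535 CPM in that mouse and at 0 to 1.3 CPM in the other 5 tianeptine mice. Without it 16 markers were higher, 7 at an unadjusted p under 0.05, with a median of 0.42. Otx2 and Calml4, also high in tianeptine replicate 1, differed by 1.75 ± 0.55 and 2.59 ± 0.75, and by 0.33 ± 0.36 and 0.09 ± 0.38 with tissue scores in the model. The choroid plexus score is itself among those scores, so smaller values follow from that fit by construction.

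All 14 antigen presentation genes of the MHC were lower, with a median of -0.69. Of these, 9 had an unadjusted p under 0.05, against 3.12% of all genes lower. Without saline replicates 2 and 3 11 of the 14 were higher and the median was 0.12. H2-Aa, an MHC class II chain, was at 18.2 CPM in saline replicate 3 and at 0.331 to 4.44 CPM in the other saline mice. Interferon-stimulated genes were lower in 26 of 30, 11 of them at an unadjusted p under 0.05, with a median of -0.39, and higher in 21 of 30 with a median of 0.14 without those 2 mice. Gbp2, an interferon-induced GTPase, was at 22.2 CPM in saline replicate 2, against 1.35 to 5.67 CPM on tianeptine. The direction of both lists thus rested on these 2 saline mice. Of 11 peripheral immune markers 9 were lower, and their median of -0.33 became 0.33 without these mice.

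Markers of neurons of the septum, preoptic area, hypothalamus and thalamus were higher in 22 of 24, 4 of them at an unadjusted p under 0.05, with a median of 0.30. Without tianeptine replicate 1 the median was 0.18 and none was higher at an unadjusted p under 0.05. Trpc4, a cation channel abundant in lateral septum, was at 86.9 CPM in tianeptine replicate 1 and at 13.6 to 27.5 CPM in the other 5. Its difference of 1.23 ± 0.42 became 0.57 ± 0.34 without that mouse, and Zic1, a septal transcription factor, went from 1.03 ± 0.43 to 0.37 ± 0.35. Of 18 cortical excitatory neuron markers 16 were lower, with 0 at an unadjusted p under 0.05 and a median of -0.44. Leaving out 1 mouse at a time, the median ran from -0.90 to -0.24. It was -0.09 without saline replicates 2 and 3, -0.06 without the library set term, and 0.03, with 11 of the 18 higher, with tissue scores in the model. The cortical score is itself among those scores, so the value of 0.03 cannot show whether the list differed. Slc17a7, the vesicular glutamate transporter of cortex, was at 143 to 358 CPM on saline. On tianeptine it was at 2.91 and 1.79 CPM in replicates 1 and 2, at 165 to 177 CPM in replicates 3, 4 and 6, and at 749 CPM in replicate 5.

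**Figure D4:**
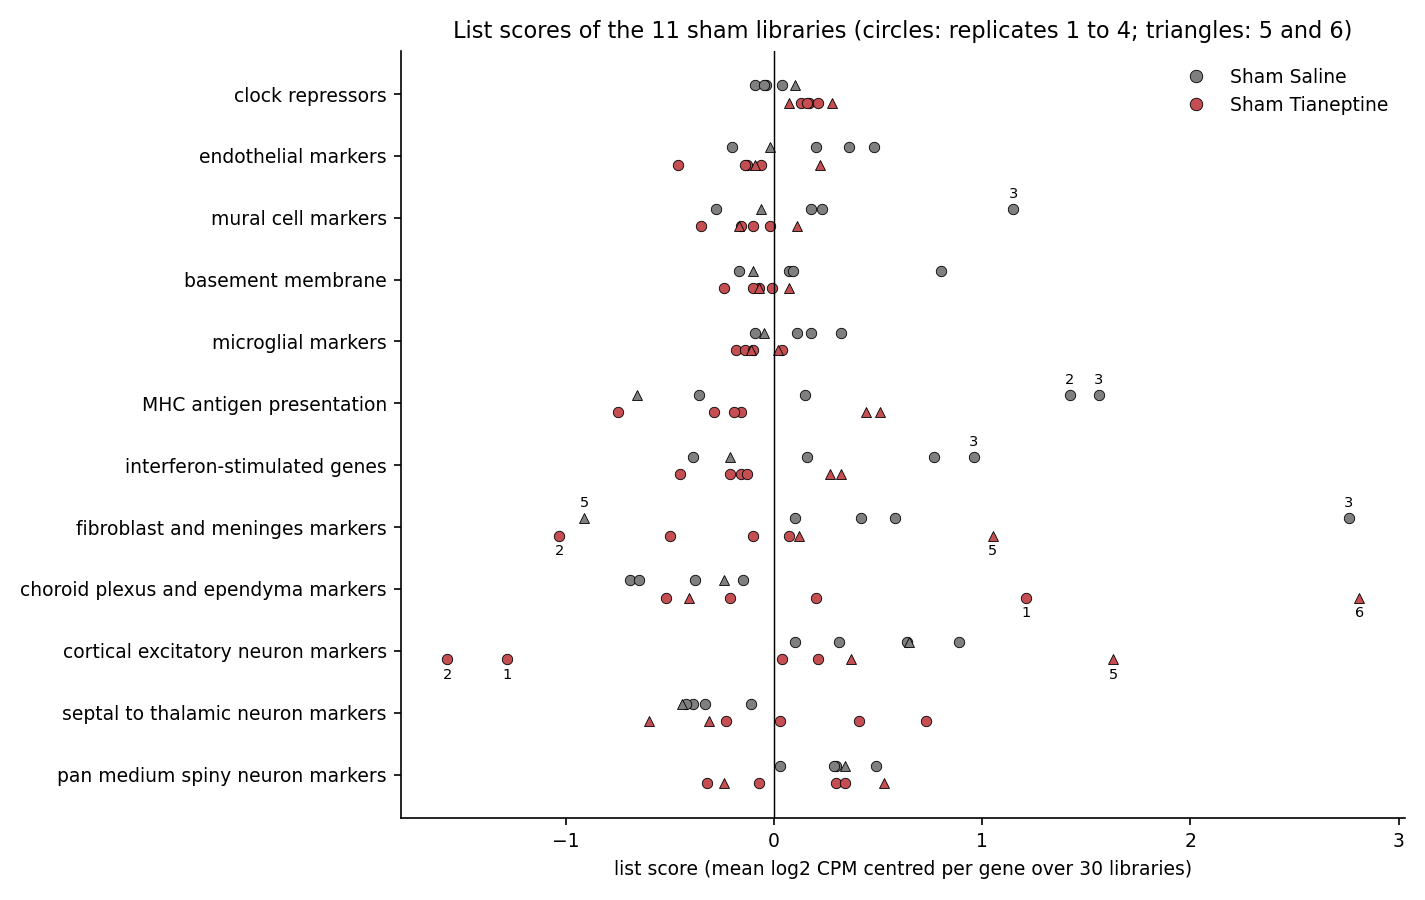
Score of 12 gene lists (horizontal axis, mean of centred log2 CPM) in each of the 11 sham libraries, saline and tianeptine side by side; digits mark replicates beyond 0.9 in either direction. Choroid plexus is carried by tianeptine replicate 6 (2.81), fibroblasts by saline replicate 3 (2.76), and the cortical score runs from -1.57 to 1.63 within the tianeptine group.

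Other genes on the lower side with separated groups were Rcsd1, which encodes a protein that binds the actin capping protein CapZ, and Spaar, a small polypeptide that restrains mTORC1. Rcsd1 was at 8.12, 10.9, 14, 10.3 and 8.18 CPM on saline and at 6.08, 7.30 and 7.86 CPM on tianeptine, and every tianeptine mouse was below every saline mouse. It differed by -0.51 ± 0.12, and by -0.30 ± 0.12 without saline replicates 2 and 3. Spaar differed by -0.78 ± 0.19 from levels of 2.91 to 4.35 CPM on saline and 1.22 to 2.86 CPM on tianeptine, and Krtcap3 by -0.38 ± 0.10. Cxcl12, a chemokine made by vessels and stroma, differed by -0.55 ± 0.15, and Pou2f2, the transcription factor OCT2, by -0.23 ± 0.06.

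On the higher side, most genes of small p had small and even differences. Sfr1, a factor of homologous recombination repair, was at 60.2, 53.9, 59.9, 58.4 and 58.1 CPM on saline and at 62.3, 65.1 and 67.7 CPM on tianeptine, and the groups did not overlap. It differed by 0.17 ± 0.04 (unadjusted p = 0.000665, edgeR), and by 0.02 ± 0.04 in SNI. Mthfd1l was at 13.9, 16, 12.8, 11.5 and 14.9 CPM on saline and at 15.0, 16.8 and 18.3 CPM on tianeptine. Only tianeptine replicate 4 lay within the saline range for Mthfd1l, and the difference was 0.28 ± 0.08, with 0.18 ± 0.07 in SNI (unadjusted p = 0.00112 and 0.025, edgeR).

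Rabgap1, a RAB GTPase activator, and Dctn4, a dynactin subunit of retrograde transport, differed by 0.17 ± 0.05 and 0.15 ± 0.05. Pcca, the propionyl-CoA carboxylase alpha chain, was at 0.16 ± 0.05, and Epm2a, the glycogen phosphatase laforin, at 0.21 ± 0.06. The ubiquitin-conjugating enzyme gene Ube2d2a, which has near-identical paralogs, was at 0.17 ± 0.05, the kinetochore gene Mis12 at 0.23 ± 0.07 and Fam71e1 at 0.28 ± 0.08. Without saline replicates 2 and 3 Epm2a was at 0.13 ± 0.07 and Rabgap1 at 0.10 ± 0.05.

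Rasd1, a RAS-like G protein that is induced by dexamethasone and modulates G protein signalling, had the largest difference of the 24 genes, at 1.20 ± 0.37. It was at 3.87, 4.59, 6.01, 2.72 and 3.55 CPM on saline and at 4.38, 5.94 and 27 CPM on tianeptine. The highest value was that of tianeptine replicate 1, and the other 5 ran from 4.38 to 9.42 CPM. Without that mouse the difference was 0.58 ± 0.26 (unadjusted p = 0.0376, edgeR), and in SNI it was 0.70 ± 0.37.

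**Figure D5:**
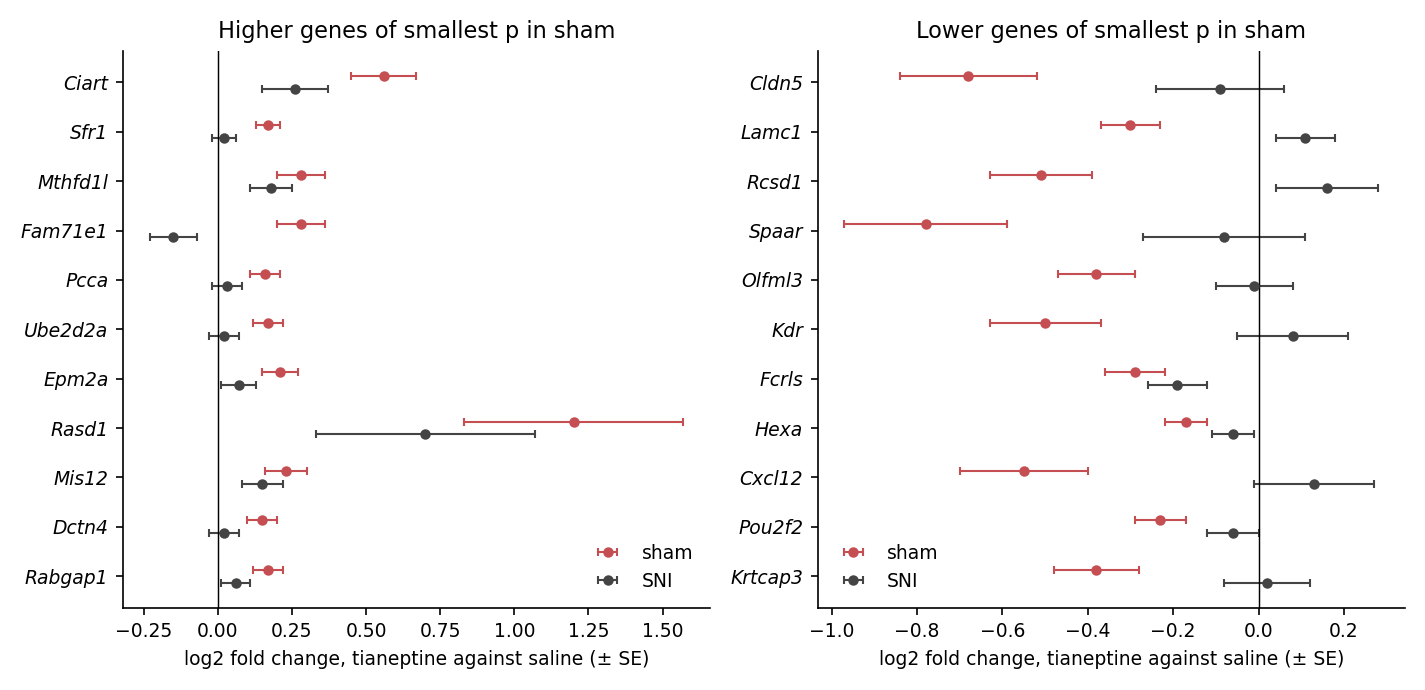
Log2 fold change of tianeptine over saline (horizontal axis, ± SE) for higher and lower genes of smallest p in sham mice, with the value of the same gene in SNI mice. In sham the values run from -0.78 (Spaar) to 1.20 (Rasd1), and in SNI most lie closer to 0. The genes were chosen by their p in sham, which by itself favours larger values there, so the figure cannot compare the surgeries.

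Of the 4 opioid receptor genes 2 were higher and 2 lower, and 1 of them, Oprl1, had an unadjusted p under 0.05. Oprm1, the mu-opioid receptor, was at 61.8, 35.9, 66.9, 51.5 and 97.9 CPM on saline and at 53.2, 70.4 and 82.9 CPM on tianeptine, with the tianeptine mice inside the saline range. The difference was 0.11 ± 0.15 (95% interval -0.19 to 0.41), and 0.27 ± 0.15 without saline replicate 5, the highest of all 11. The delta receptor gene Oprd1 differed by -0.28 ± 0.20 and the kappa receptor gene Oprk1 by -0.31 ± 0.25. Oprl1, the nociceptin receptor, was at 32.7 to 40.0 CPM on saline and 30.9 to 61.3 CPM on tianeptine, with 5 of 6 tianeptine mice above every saline mouse, and differed by 0.35 ± 0.15 (unadjusted p = 0.0241, edgeR). With tissue scores in the model it was at 0.18 ± 0.10.

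The peptide precursors differed by -0.06 ± 0.25 for Penk (enkephalins), -0.14 ± 0.34 for Pdyn (dynorphins) and 0.21 ± 0.14 for Pomc (beta-endorphin), none at an unadjusted p under 0.05. Pnoc, the nociceptin precursor, was at 2.08 to 4.57 CPM on saline and 2.67 to 15.4 CPM on tianeptine, and its difference of 1.12 ± 0.50 became 0.56 ± 0.46 without tianeptine replicate 1. Of 28 genes of opioid receptor signalling tested, 16 were higher and 12 lower, with a median of 0.02. At an unadjusted p under 0.05 were Gnai1, an inhibitory G protein alpha subunit, at 0.27 ± 0.10, and Kcnj5, a G protein-gated potassium channel, at 0.97 ± 0.44. Without tianeptine replicate 1, or without saline replicates 2 and 3, 0 of the 28 genes were at that p. Kcnj5 was at 5.65 and 5.64 CPM in tianeptine replicates 1 and 2, the mice with high septal markers, and at 0.933 to 2.37 CPM in the other 9, and it differed by 0.18 ± 0.18 with tissue scores in the model.

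Markers of medium spiny neurons were lower in 22 of 24, but 0 had an unadjusted p under 0.05, with a median of -0.19. Their score was 0.03 to 0.49 on saline, and on tianeptine -0.32, -0.07 and -0.24 in replicates 1, 2 and 5 and 0.30, 0.34 and 0.53 in replicates 3, 4 and 6. The 3 low mice are those whose septal or cortical scores stood apart. With tissue scores in the model the median was -0.04. Drd1 and Drd2, the dopamine receptors of the 2 kinds of medium spiny neuron, differed by -0.24 ± 0.34 and -0.23 ± 0.31, and Adora2a, the adenosine receptor of D2 neurons, by -0.33 ± 0.36. Dopamine receptor and signalling genes were lower in 14 of 15, with a median of -0.22 and 0 at an unadjusted p under 0.05. That median was -0.14 without tianeptine replicate 1 and -0.05 with tissue scores in the model. In SNI all 24 spiny neuron markers were higher, and their median was 0.11.

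Immediate early genes, which neurons switch on with activity, were higher in 18 and lower in 19 of 37, with a median of -0.02. Without saline replicate 3, 24 of the 37 were higher (median 0.15), and without saline replicates 2 and 3, 29 of the 37 (median 0.20). Fos was at 6.06, 10.5, 15.1, 4.05 and 17.2 CPM on saline and at 7.23, 16.5 and 25.2 CPM on tianeptine, a wide spread in both groups, and differed by 0.61 ± 0.51. Sik1, a salt-inducible kinase that CREB induces, was the only member at an unadjusted p under 0.05, at 0.44 ± 0.20, with 0.40 ± 0.20 in SNI. Without tianeptine replicate 1, or without tianeptine replicate 6, 0 of the 37 were at that p in sham. In SNI 35 of the 37 were higher, with a median of 0.29. Bdnf, the neurotrophin brought to the accumbens mainly by cortical axons, was at 11.7 CPM in tianeptine replicate 5 and differed by -0.70 ± 0.72.

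Of 17 AMPA receptor and auxiliary subunit genes, 8 were higher and 9 lower, and 0 had an unadjusted p under 0.05. Gria1, the GluA1 subunit, was at 791 to 1047 CPM on saline and 820 to 1071 CPM on tianeptine, and differed by 0.05 ± 0.09. Of these genes 12 were higher with tissue scores in the model. NMDA receptor genes were lower in 5 of 7 (higher in 5 of 7 with tissue scores in the model), with Grin2c, a subunit rich in astrocytes and cerebellum, at -0.37 ± 0.18. Of the 7, 2 were lower at an unadjusted p under 0.05. This was 0 when saline replicate 2, saline replicate 3 or tianeptine replicate 1 was left out. Postsynaptic scaffold genes were lower in 14 of 17, with a median of -0.09 and 0 at an unadjusted p under 0.05. With tissue scores in the model 11 of these 17 were higher and the median was 0.01.

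The effect of tianeptine in SNI minus that in sham tests whether the drug's effect depended on injury. No gene passed, with a lowest edgeR adjusted p of 0.989, and 997 genes (4.2%) had an unadjusted p under 0.05, 531 (2.24%) with the higher effect in SNI and 466 (1.96%) with the lower. Without saline replicate 2 this count was 1564. In SNI alone, 681 genes (2.87%) had an unadjusted p under 0.05 and 0 passed with edgeR. The gene of smallest p was Zfp366, a zinc finger corepressor, at -0.44 ± 0.14 in sham and 0.43 ± 0.14 in SNI (unadjusted p of the difference 0.000123, edgeR). Lamc1 (-0.30 ± 0.07 and 0.11 ± 0.07) and Rcsd1 (-0.51 ± 0.12 and 0.16 ± 0.12) followed the same pattern. The T-box factor genes Tbx2 and Tbx3 were at -0.35 ± 0.11 and -0.47 ± 0.14 in sham and at 0.28 ± 0.11 and 0.31 ± 0.14 in SNI. Choosing genes by a small p for the difference favours effects of opposite sign by itself.

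Metallothioneins, zinc-binding proteins induced by glucocorticoids and metals, had the other pattern. Mt2 was at 27.6, 30.6, 30.9, 23.6 and 20.3 CPM on saline and at 21.9, 31.9 and 36.2 CPM on tianeptine, with the 3 mice of the second library set the lowest of all 11. It differed by 0.23 ± 0.09 in sham and by -0.32 ± 0.09 in SNI (unadjusted p of the difference 0.00016, edgeR). Mt1 and Mt3 differed by 0.09 ± 0.08 and 0.09 ± 0.06 in sham and by -0.18 ± 0.08 and -0.12 ± 0.06 in SNI. Mt2 shares 432 of its 588 exon bases with Gm45774 on the opposite strand, so its value rests on how strand was counted. Of the wider list of glucocorticoid receptor targets 10 were higher and 11 lower in sham. These counts were 13 and 8 without saline replicates 2 and 3, where 5 were higher at an unadjusted p under 0.05 and the median was 0.18. They were 16 and 5 with tissue scores in the model.

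The counts of some glial and housekeeping lists moved without saline replicate 2, or without saline replicates 2 and 3. Of 18 astrocyte markers 14 were lower (median -0.07), and of 20 oligodendrocyte markers 16 (median -0.06), and neither had a member at an unadjusted p under 0.05. Leaving out saline replicates 2 and 3, 12 of the astrocyte markers were higher (median 0.04) and 17 of the oligodendrocyte markers were lower (median -0.04). Cytosolic ribosomal protein genes were higher in 41 and lower in 48 of 89, with a median of -0.01. Without saline replicate 2, 79 were higher and 10 lower, 8 of them higher at an unadjusted p under 0.05, and the median was 0.06. The counts were 23 and 66 with tissue scores in the model. Nuclear genes of oxidative phosphorylation were higher in 47 and lower in 33 of 80, with a median of 0.02, and Ndufv2, a complex I subunit, was at 0.17 ± 0.05. Without saline replicate 2, 74 of the 80 were higher, 18 of them at an unadjusted p under 0.05, and the median was 0.07. Without the library set term 35 were higher and 45 lower. Of 13 messengers of the mitochondrial genome 10 were higher, with a median of 0.05. Without saline replicate 2, 0 of the 13 were higher and the median was -0.09. Among endoplasmic reticulum chaperones, 9 higher and 7 lower, the calcium-binding chaperone gene Calr was at -0.20 ± 0.06. Of these chaperones 2 were higher and 14 lower with tissue scores in the model.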

How the data were processed

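RNA was extracted with TRIzol and libraries were made with a stranded mRNA kit, per the labels' protocols. The reads were processed with Trim Galore, HISAT2, SAMtools and featureCounts on mm10, per the submitters' processing notes, and the sources used here do not give versions, annotation release or strand setting. The values used are the authors' deposited gene counts, and the deposited FPKM table was not used. Of 55401 gene IDs, 54349 matched GENCODE vM21 exactly and 792 without the version, and 260 (0.051% of counts) stayed unnamed. Genes were filtered by expression within groups (filterByExpr), which left 23736 genes with 99.925% of counts, and scaled by TMM.

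The main test was edgeR's quasi-likelihood F-test (edgeR 4.0.16, R 4.3.3, two-sided) on all 30 libraries, with 1 coefficient per group and the library set (replicates 5 and 6 against 1 to 4) as covariate, 23 residual degrees of freedom, and Benjamini-Hochberg adjustment over all genes tested. Levels are TMM-scaled CPM, and scores use log2 CPM with a prior count of 2. The drug effect in SNI minus that in sham came from the same fit, and 2 fits on 11 libraries each gave the direction counts. Alternatives were DESeq2 1.42.0, limma-voom (limma 3.58.1), other scaling and filters, other model terms and samples left out. The tissue scores used as model terms were the scores of the choroid plexus, fibroblast, cortical and septal lists. Values of these same lists in that fit are near 0 by construction. Groups came from the labels. No 2 replicates of a sham group agreed within sampling noise (smallest chi-square per degree of freedom 8.08).

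Named were the 12 higher and 12 lower genes of smallest p whose mean log2 CPM was 1 or more, of each of 46 lists up to 6 by p and 2 by size, all clock, opioid receptor and opioid peptide genes, the 6 genes of smallest p for the difference between surgeries, and single markers said in the text to be chosen after their values were seen. Some of these genes are not reported here. Members and lists were chosen with earlier results of these data known. Lists are described by counts and medians, without a test. The scripts were tested on simulated data.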

Additional observations from a re-analysis of the deposited data

Results flagged for a closer look

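Within the 2 sham groups, 308 group values were screened for a single mouse far from the others by Dixon's test at 95%, over 46 list scores and 108 genes, and 21 were found, where chance gives about 1 in 20. The count is thus not far above what chance gives. The genes screened were those chosen for the text, and genes of 1 cell type can flag the same mouse together. Flags were most frequent in saline replicate 3 and tianeptine replicate 1. Saline replicate 3 stood apart in the scores of basement membrane (0.80, others -0.17 to 0.09) and of VEGF and angiopoietin ligands (0.41, others -0.14 to 0.01). The same mouse stood apart in the perlecan gene Hspg2 (38.8 CPM, others 13 to 18), Col1a1 (28.3, others 4.38 to 7.14), Dcn (41.3, others 3.69 to 5.91) and H2-Aa (18.2, others 0.331 to 4.44). It was also highest for Angpt2 (2.49 CPM, others 1.14 to 1.26), Pnoc (4.57, others 2.08 to 2.27) and Ttr (0.582, others 0.0364 to 0.0841).

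Tianeptine replicate 1 was the high mouse for Rasd1 (27 CPM, others 4.38 to 9.42), Pnoc (15.4, others 2.67 to 5.14), Trpc4 (86.9, others 13.6 to 27.5) and Zic1 (126, others 20 to 40.6), and the low mouse for Per3 (51.5, others 58.5 to 60.7). The 5 others all lay above the highest saline mouse for Per3, at 57.3 CPM.

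Tianeptine replicate 5 was high for the cortical genes Slc17a7 (749 CPM, others 1.79 to 177) and Bdnf (11.7, others 0.877 to 4.15), and replicate 6 for Ttr (535, others 0 to 1.3) and Gbp2 (5.67, others 1.35 to 2.96). Saline replicate 2 was high for Cry2 (153 CPM, others 127 to 133) and Vegfa (127, others 109 to 114), and saline replicate 1 low for Calml4 (0.0421, others 0.166 to 0.207).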

How the results depend on the processing

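With 5 and 6 mice a group and a biological coefficient of variation of 17.5%, no gene passed with edgeR under any setting, and the lowest edgeR adjusted p ran from 0.099 (without tianeptine replicate 6) to 1.0 (without tianeptine replicate 1). DESeq2 called 1 gene, Ciart (0.56, DESeq2 adjusted p = 0.0118). The count at an unadjusted p under 0.05 was 2502 with the first library set only and ran from 858 to 2471 when 1 mouse was left out. The count with the same direction in SNI, 542, ran from 242 to 946. Correlations of deviations between sham mice of the same replicate number ran from -0.711 (replicate 5) to 0.403 (replicate 4). The model makes deviations within the second library set sum to 0, so the value of replicate 5 cannot show pairing. Whether replicate numbers pair the mice was therefore not settled. With a replicate block in the 11 sham libraries 0 genes passed. List medians of choroid plexus (-0.05) and fibroblasts (0.04) changed sign with tissue scores. Those scores include the scores of these lists, which brings their medians near 0 by construction. The fibroblast median also reversed without saline replicates 2 and 3 (0.07), and when tianeptine replicate 6 was left out as well (0.07). In the last 2 settings MHC genes were at 0.12 and 0.02, interferon genes at 0.14 and 0.05, Dcn at 0.18 and 0.08, Cd74 at 0.67 and 0.59, and H2-Aa at 0.54 and 0.53. Gbp2 was at 0.18 in the first of them. With limma-voom Cd74 was at 0.07 and H2-Aa at 0.09, and Ttr was at -0.26 with the first library set only. Rora was at 0.03 without the library set term. When 1 mouse was left out, Dcn ran from -1.53 to 0.1 (without saline replicate 3) and Rora from -0.2 to 0 (without saline replicate 4). Of 2585 gene values, 13 others within 1 SE of 0 moved by more than 1 SE, and 2558 had the same direction and the same side of the threshold or moved by less. The count for the difference between surgeries, 997 at an unadjusted p under 0.05, was 2106 with the first library set only, 1640 without a filter, 1564 without saline replicate 2 and 1623 without saline replicates 2 and 3 and tianeptine replicate 6. The causes were not tested.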

Other observations

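GABA genes leaned to the higher side, with 16 of 20 higher on tianeptine and a median of 0.14, against 50.9% of all genes higher, and the median was 0.07 without saline replicates 2 and 3. Gabrg1, a gamma subunit of the GABA-A receptor, was at 33.9, 20.3, 30.3, 35.7 and 41.4 CPM on saline and at 36.5, 44.4 and 61.4 CPM (lowest, median, highest) on tianeptine. Saline replicate 5 alone reached into the tianeptine range. The difference was 0.57 ± 0.21 (unadjusted p = 0.0118, edgeR), and 0.26 ± 0.15 with tissue scores in the model.

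Grm8, a presynaptic metabotropic glutamate receptor, was at 5.28 to 6.19 CPM on saline and at 6.33, 8.35 and 15.0 CPM (lowest, median, highest) on tianeptine, and the groups did not overlap. It differed by 0.76 ± 0.32 (unadjusted p = 0.0236, edgeR), with -0.16 ± 0.31 in SNI. Of 7 metabotropic glutamate receptor genes tested it was the 1 higher at an unadjusted p under 0.05 (edgeR). Without saline replicates 2 and 3, with the first library set only, or without tianeptine replicate 1, 0 of the 7 were. Htr1a, the serotonin 1A receptor, was at 38.9 CPM in tianeptine replicate 1, and its difference of 0.78 ± 0.35 became 0.38 ± 0.32 without that mouse. Neither gene passed an adjusted p of 0.05 with edgeR.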
